A study of Mus musculus with 12 samples.

Results

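The 10 genes Cxcl1, Cxcl2, Cxcl3, Cxcl5, Csf1, Csf2, Csf3, Il1a, Ccl2 and Ccl5 encode signals by which a carcinoma cell draws in and sustains myeloid cells. They were chosen by gene name from a table of 29937 genes, and all 10 were found. Their RNA was measured by sequencing in 12 libraries of wild-type 4T1 cells, an adherent mouse mammary carcinoma line, in 4 groups of 3 libraries. The groups are PBS (treatment label DMSO, the controls), APAP, Oxa and OAP2, named as in the titles. The labels state neither doses nor treatment times, and nothing says that the 3 libraries of a group came from separate cultures, so each p-value reflects the spread between libraries, which may be technical. The control columns are headed CON and were matched to the PBS titles by inference. All 12 libraries are labelled as the cell line, although the series' design describes treated xenografts made from cells.

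CXCL1, CXCL2, CXCL3 and CXCL5 are small secreted proteins that bind the receptor CXCR2 and attract neutrophils. CSF1, CSF2 and CSF3 are growth factors of macrophages, of granulocytes with macrophages, and of granulocytes, and 4T1 tumours are known for the granulocyte expansion that CSF3 causes in the host. Interleukin 1 alpha, from Il1a, is an alarm cytokine that activates NF-kB, and NF-kB in turn is a known activator of the CXC chemokine genes. CCL2 attracts monocytes and CCL5 attracts T cells and monocytes.

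The 4 CXC genes lie side by side on chromosome 5 of GRCm38, within 147 kb (90759360 to 90905938), in the order Cxcl5, Cxcl3, Cxcl1, Cxcl2. Ppbp and Pf4, chemokines of platelets, lie between Cxcl5 and Cxcl3 and had mean levels of 0.673 and 0.199 FPKM (fragments per kilobase of transcript, scaled to sequencing depth). All 4 are on the plus strand: Cxcl5 at 90759360-90761624, Cxcl3 at 90786103-90789600, Cxcl1 at 90891241-90893115 and Cxcl2 at 90903871-90905938. On chromosome 11 lie Csf2 (54247271-54249667, minus), Ccl2 (82035571-82037453, plus), Ccl5 (83525778-83530518, minus) and Csf3 (98701263-98703629, plus). Csf1 is on chromosome 3 (107741048-107760469, minus) and Il1a on chromosome 2 (129299610-129309972, minus). Promoters from 250 bases before to 50 bases after the start were found for 6 of the 10 genes in the RefSeq table (GRCm38.p6). The promoters of the 3 neighbours Cxcl1, Cxcl2 and Cxcl3, and that of Csf1, are printed because each holds the consensus kappa-B site, the motif bound by NF-kB. Capitals mark this motif, the TATA box TATAAA and the AP-1 motif TGANTCA wherever they were found on either strand, and all 4 read 5′ to 3′ on the strand of the gene.
Cxcl1 (chr5:90890995-90891294, plus strand): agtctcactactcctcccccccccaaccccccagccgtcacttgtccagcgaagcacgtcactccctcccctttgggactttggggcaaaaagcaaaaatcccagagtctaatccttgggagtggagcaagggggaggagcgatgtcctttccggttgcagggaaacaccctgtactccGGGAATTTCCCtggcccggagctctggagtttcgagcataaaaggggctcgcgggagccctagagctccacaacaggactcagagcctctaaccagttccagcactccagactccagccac
Cxcl2 (chr5:90903649-90903948, plus strand): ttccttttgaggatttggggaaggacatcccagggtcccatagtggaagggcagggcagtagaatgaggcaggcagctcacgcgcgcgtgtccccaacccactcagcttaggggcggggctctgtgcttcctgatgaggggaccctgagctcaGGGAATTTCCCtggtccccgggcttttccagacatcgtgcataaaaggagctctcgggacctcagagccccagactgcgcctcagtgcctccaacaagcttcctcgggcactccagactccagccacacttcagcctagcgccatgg
Cxcl3 (chr5:90785851-90786150, plus strand): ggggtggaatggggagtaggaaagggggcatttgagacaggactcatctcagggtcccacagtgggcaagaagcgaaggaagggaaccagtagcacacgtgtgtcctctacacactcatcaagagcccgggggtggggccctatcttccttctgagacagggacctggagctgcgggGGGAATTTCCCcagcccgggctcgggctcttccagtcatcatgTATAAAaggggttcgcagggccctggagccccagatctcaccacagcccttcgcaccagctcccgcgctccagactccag
Csf1 (chr3:107760420-107760719, minus strand): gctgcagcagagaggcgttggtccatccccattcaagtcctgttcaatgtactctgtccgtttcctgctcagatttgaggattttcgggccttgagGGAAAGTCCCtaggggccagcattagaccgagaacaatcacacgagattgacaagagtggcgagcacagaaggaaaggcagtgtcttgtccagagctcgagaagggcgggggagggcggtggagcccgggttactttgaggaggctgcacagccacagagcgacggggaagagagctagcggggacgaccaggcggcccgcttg

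In Cxcl1, Cxcl2 and Cxcl3 the capitals of the kappa-B site are the same 11 letters, which match the consensus on both strands. The first of these letters lies 71, 97 and 73 bases before the RefSeq start. For Cxcl2 that start lies downstream of the gene start given above, so its larger distance depends on the start used. Csf1 carries another version on the opposite strand, with its first printed letter 154 bases before the start. The consensus is present in 4.35% of 27025 promoters of this length, TATAAA in 14.2% and TGANTCA in 7.93%. The Il1a promoter held TATAAA and TGANTCA but no kappa-B letters, and the Csf2 window held none of the 3 motifs. That window (54249850 to 54250149) follows a RefSeq start and lies wholly upstream of the Csf2 start given above (54249667). It therefore does not cover the bases next to that start, and the lack of motifs does not describe them. These matches describe letters and not binding.

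**Figure D1:**
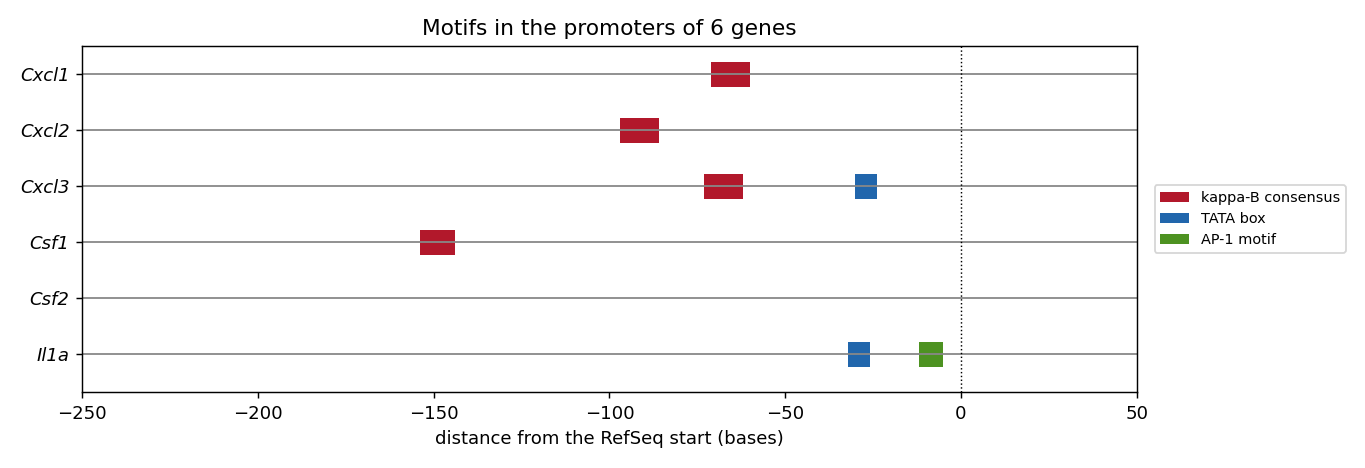
Position of the kappa-B consensus (red), TATAAA (blue) and TGANTCA (green) in the promoters of 6 genes, as distance in bases from the RefSeq start (dotted line). In Cxcl1, Cxcl2 and Cxcl3 the kappa-B letters begin 71 to 97 bases before the start, and those of Csf1 lie farther out. The RefSeq start of Cxcl2 lies downstream of the gene start given in the text, and the Csf2 window lies wholly upstream of that of Csf2.

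Most of these genes also carry an RNA feature in their messages. The heptamer TATTTAT, a core of AU-rich elements through which proteins such as tristetraprolin shorten the life of cytokine mRNAs, was counted in the longest 3′ UTR of each gene in GENCODE M21. It occurred in 8 of the 10 genes, and at least 2 times in 6, against 30.8% and 11% of 9925 tested genes with a 3′ UTR. Csf2, counted here though it was not among the tested genes, held 9 copies. Cxcl2 held 7, Cxcl1 6, Il1a 3, Cxcl3 and Csf3 2 each and Cxcl5 and Csf1 1 each, while Ccl2 and Ccl5 held 0. Cxcl2 and Cxcl3 are close copies: of all windows of 100 bases in their transcripts, 3.05% of those of Cxcl2 and 1.88% of those of Cxcl3 occur in the other gene. The other 8 genes shared no such window with any gene.

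Depth ranged from 64071751 to 71500487 counts per library. The epithelial keratin and adhesion markers were abundant throughout, with a summed level of 1095 to 1469 FPKM. PBS 2 stood apart: its 5 red blood cell markers summed to 230.3 FPKM and its 10 neutrophil markers to 67.7, against at most 0.37 and 0.73 in the other 11 libraries. Of the 10 neutrophil markers, 5 were at or above 1 FPKM in PBS 2, led by S100a9 (35.5) and S100a8 (17.8). Cxcr2 stood at 0.05 there. Csf3r alone was not highest in PBS 2, at 0.07 against 0.20 in PBS 1. The 9 macrophage markers summed to 50.1 in PBS 1 and to 15.5 to 24.5 in the other 11 libraries, where Cd68, Cd14 and, except in PBS 3, Lyz2 were among the detected members. Lyz2 stood at 31.0 in PBS 1 and at 0 in PBS 3. The complement genes C1qa, C1qb and C1qc stayed at or below 0.26 in every library. The 3 T and NK cell markers in the table summed to at most 0.22, the 6 fibroblast markers to at most 2.1 and the 4 endothelial markers to at most 0.09, and the leukocyte antigen Ptprc stood at or below 0.08. In such bulk libraries, fewer cells of a type and less RNA per cell cannot be told apart. Results are given with and without PBS 2.

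Of the 10 genes, 9 passed the filter of at least 1 FPKM in at least 3 of the 12 libraries, and Csf2 did not. Cxcl3 passed through 5 libraries (PBS 1, PBS 3 and the 3 Oxa libraries) and Ccl2 through 4 (PBS 1 and the 3 Oxa libraries), so both entered by libraries in which they were high. Counts and medians over the 9 that include these genes are therefore descriptions and support nothing. By mean FPKM over the 12 libraries, Csf1 was the most abundant (31.0), followed by Il1a (26.8), Csf3 (16.1), Cxcl5 (10.8), Cxcl1 (7.70), Ccl5 (6.85), Cxcl2 (1.22), Cxcl3 (1.12), Ccl2 (1.03) and Csf2 (0.184). Without PBS 2 the mean of Il1a was 12.99, below that of Csf3 (15.1). Changes are log2 fold changes ± SE from edgeR over all 12 libraries, with p-values adjusted over 12036 tested genes.

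**Figure D2:**
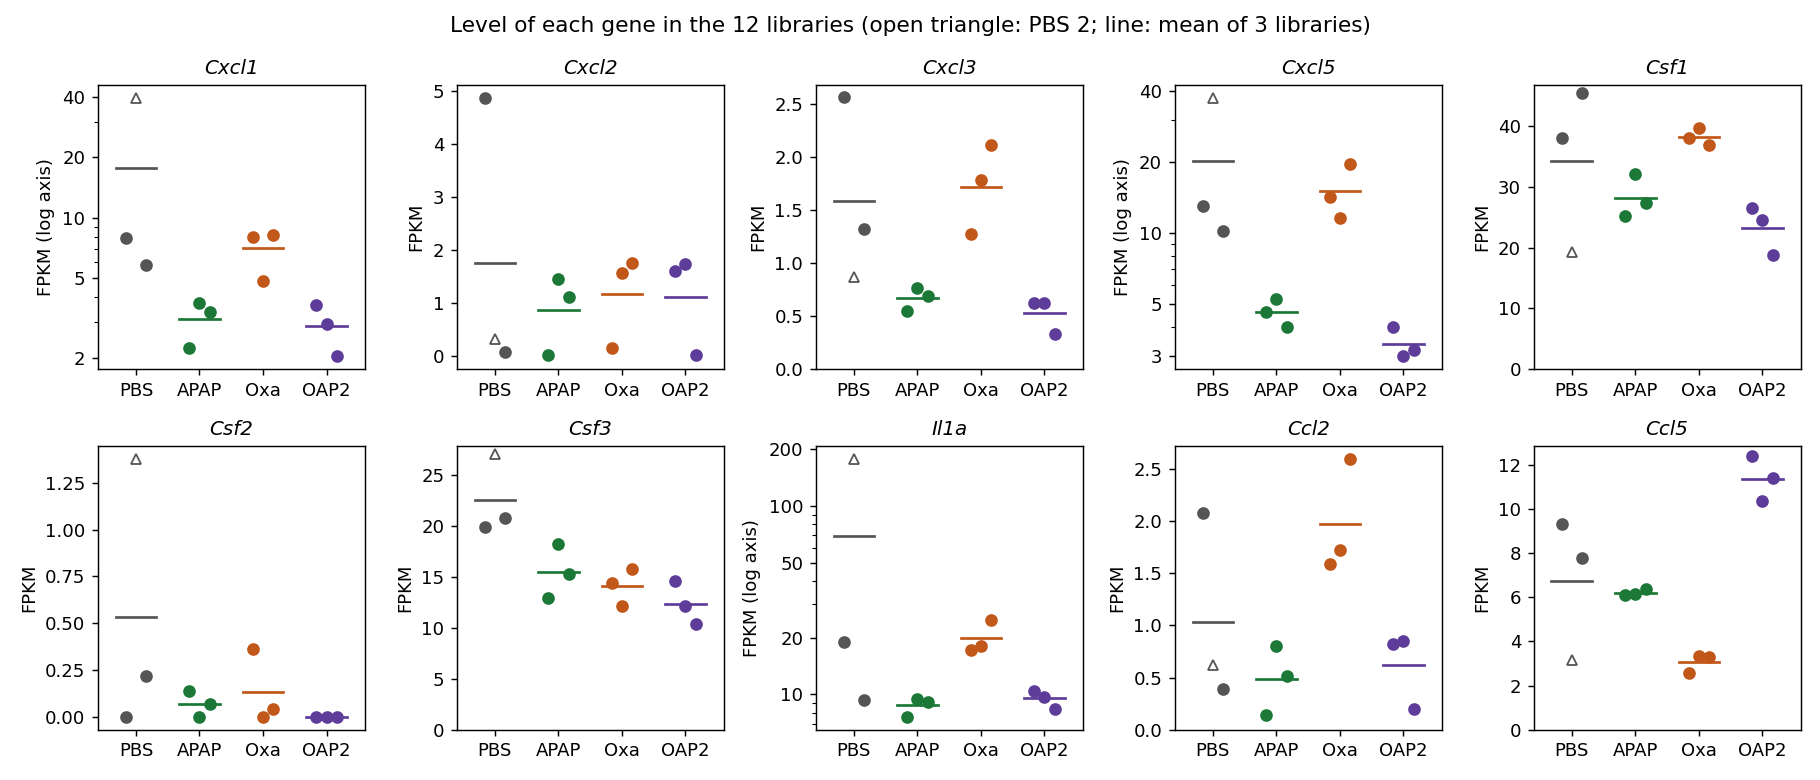
FPKM of the 10 genes in each of the 12 libraries by group (log axes for Cxcl1, Cxcl5 and Il1a), with PBS 2 as an open triangle and a line at each group's mean. Cxcl5 lay between 3.00 and 5.22 in the OAP2 and APAP libraries and at or above 10.2 in the Oxa and PBS libraries, and Ccl5 was lowest in Oxa and highest in OAP2.

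Cxcl5, the most abundant of the 4 CXC members, was low with OAP2 and APAP and high with PBS and Oxa. It stood at 13.02, 37.4 and 10.2 FPKM in PBS 1 to 3, at 4.63, 5.22 and 4.00 in APAP, at 14.2, 11.6 and 19.6 in Oxa and at 3.98, 3.00 and 3.18 in OAP2. The OAP2 and APAP libraries lay below all PBS and Oxa libraries, OAP2 lay below APAP without overlap, and Oxa overlapped PBS. Against PBS, OAP2 was 5.92-fold lower (-2.57 ± 0.40, edgeR adjusted p = 0.00306), and 3.41-fold lower without PBS 2 (-1.77 ± 0.21, 0.000238). Against Oxa, OAP2 was 4.43-fold lower (-2.15 ± 0.39, adjusted p = 0.00370). Oxa was 3.18-fold higher than APAP (1.67 ± 0.38, 0.0123), a call that ended without APAP 3 (0.0548) or Oxa 3 (0.0512). The neighbours in this order did not differ past the threshold: OAP2 against APAP was at -0.48 (95% interval -1.30 to 0.34) and Oxa against PBS at -0.42 (-1.22 to 0.38).

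Cxcl1 followed a like order at a lower level. Its FPKM was 7.90, 39.5 and 5.81 in PBS 1 to 3, 2.23, 3.77 and 3.38 in APAP, 8.02, 4.85 and 8.23 in Oxa and 3.67, 2.94 and 2.04 in OAP2. All 6 APAP and OAP2 libraries lay below all 6 PBS and Oxa libraries, and APAP overlapped OAP2. Against PBS, OAP2 was 6.11-fold lower (-2.61 ± 0.58, edgeR adjusted p = 0.0199) and, without PBS 2, 2.36-fold lower (-1.24 ± 0.29, 0.0108). This call ended without OAP2 1 (0.0634), OAP2 2 (0.0792) or OAP2 3 (0.0534). OAP2 against Oxa (-1.28 ± 0.56) had an adjusted p of 0.155, and 0.00383 without PBS 2, where the change was the same and its SE fell to 0.26. Oxa against APAP (1.13 ± 0.56) had an adjusted p of 0.185, and 0.00654 without PBS 2.

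Cxcl3 was scarce and had the same split. It stood at 2.57, 0.87 and 1.32 FPKM in PBS 1 to 3, 0.55, 0.76 and 0.69 in APAP, 1.27, 1.78 and 2.11 in Oxa and 0.62, 0.62 and 0.33 in OAP2. The APAP and OAP2 libraries lay below every PBS and Oxa library. Unlike Cxcl1 and Cxcl5, it was not raised in PBS 2, the lowest of the PBS libraries. OAP2 was 3.01-fold lower than PBS (-1.59 ± 0.38, edgeR adjusted p = 0.0293) and 3.26-fold lower than Oxa (-1.70 ± 0.38, 0.0121), and Oxa was 2.51-fold higher than APAP (1.33 ± 0.38, 0.0328). Because Cxcl3 passed the filter through PBS and Oxa libraries alone, these tests were conditioned on its high groups. With no filter, OAP2 against Oxa was still called (adjusted p = 0.0328), whereas OAP2 against PBS (0.0797) and Oxa against APAP (0.0779) were not. The call against PBS also ended without PBS 1 (-1.02, adjusted p = 0.113), OAP2 1 (0.0758), OAP2 2 (0.0720) or OAP2 3 (0.0632). That of Oxa against APAP ended without APAP 1, APAP 2, APAP 3, Oxa 2 or Oxa 3, with adjusted p from 0.0767 to 0.110.

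Cxcl2 behaved unlike its neighbours and divided the libraries within each group. Its FPKM was 4.87, 0.32 and 0.07 in PBS 1 to 3, 0.02, 1.45 and 1.11 in APAP, 0.16, 1.57 and 1.76 in Oxa and 1.60, 1.74 and 0.02 in OAP2. In counts, the lowest libraries had 4 (APAP 1), 5 (OAP2 3), 11 (PBS 3), 28 (Oxa 1) and 57 (PBS 2), and the other 7 had 188 to 843. No comparison of groups passed the threshold for Cxcl2, with SE of 1.41 to 1.43. Ccl3, Tnf and Il1b, cytokine genes that macrophages make strongly, were lowest in the same 5 libraries, and they were singled out after their values were seen. Ccl3, a chemokine of monocytes and macrophages, was at or below 0.05 FPKM there and at 2.08 to 9.94 in the other 7. Tnf, which encodes tumour necrosis factor, was at or below 0.05 there and at 0.75 to 2.93 in the other 7. Il1b, for interleukin 1 beta, stood at or below 1.27 in the same 5 and at 1.94 to 8.03 in the other 7. Ccl2 and Ccl4 did not keep this split. Ccl2 reached 1.59 in the 5 (Oxa 1) and fell to 0.51 in the other 7 (APAP 3). Ccl4 stood at 0.68 in OAP2 3 and 0.67 in PBS 2, above its 0.43 in Oxa 3. PBS 1, with the highest macrophage marker sum, held the highest level of Cxcl2, Ccl3, Tnf and Il1b. The treated groups did not follow this order. Their highest macrophage sums (20.3, 19.8 and 24.5) were in APAP 1, Oxa 1 and OAP2 3, which are among the 5 libraries lowest for Cxcl2. Adgre1, 1 of the macrophage markers, was instead lowest of its group in these libraries (0.1, 0.08 and 0.23). The macrophage antigen Adgre1 was at 1.51 in PBS 1 and at or below 0.42 in the other 11, and the part of such cells in the Cxcl2 values was not tested.

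**Figure D3:**
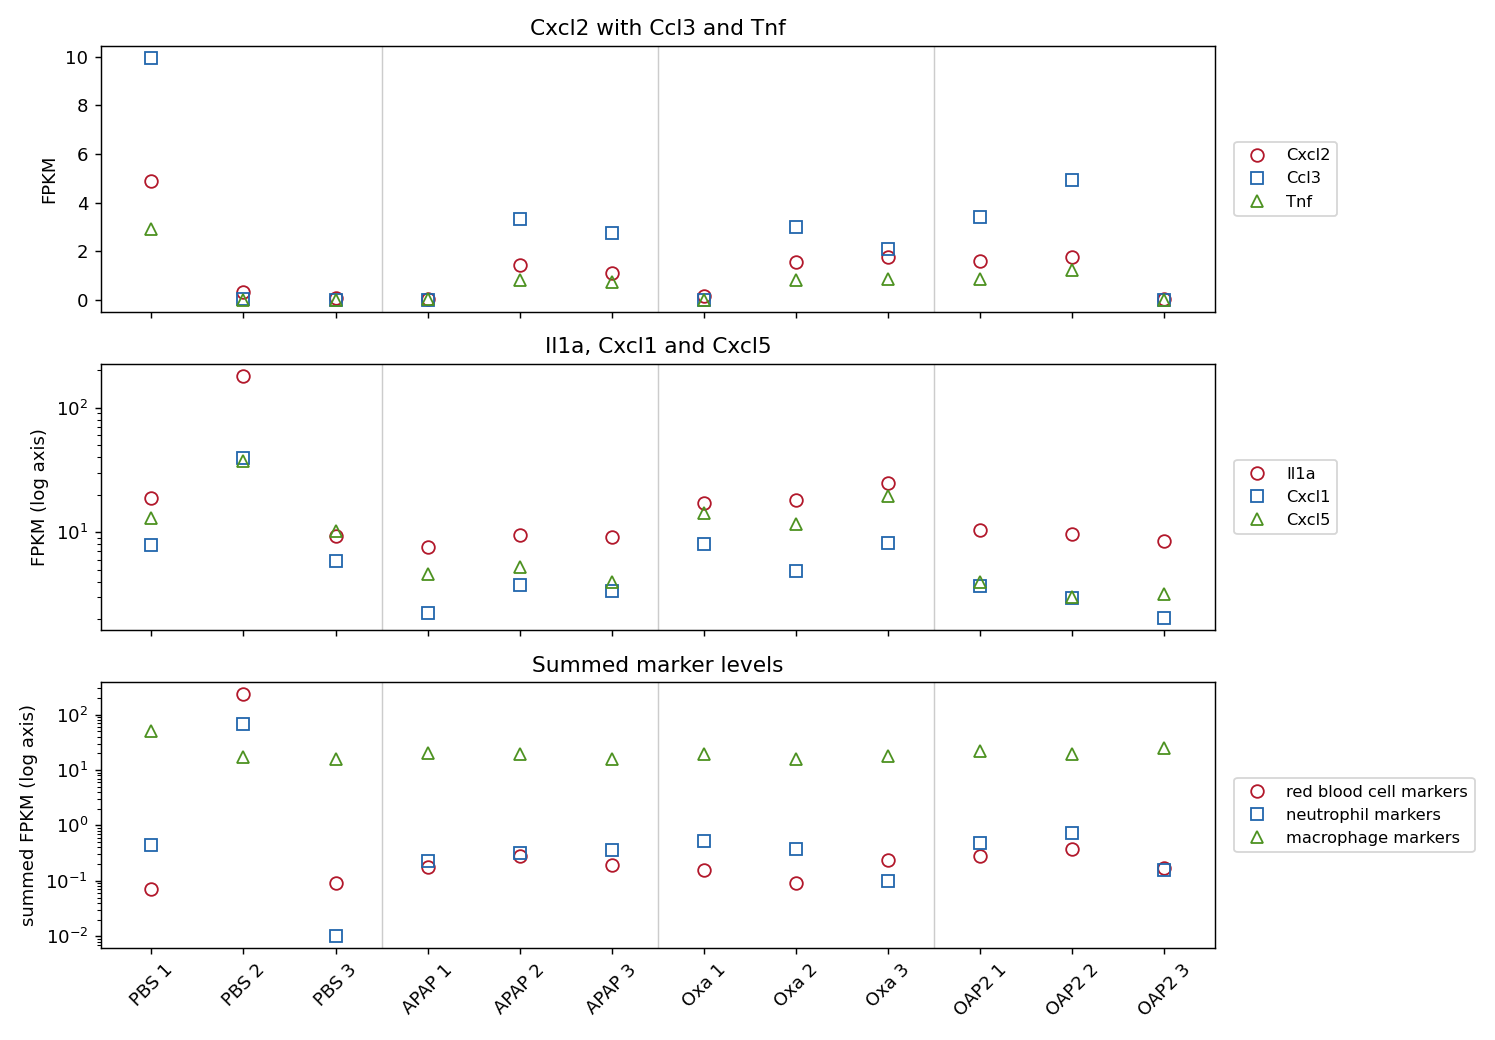
FPKM by library of Cxcl2, Ccl3 and Tnf (top), of Il1a, Cxcl1 and Cxcl5 (middle, log axis) and the summed FPKM of 3 marker lists (bottom, log axis). Cxcl2, Ccl3 and Tnf were near 0 together in PBS 2, PBS 3, APAP 1, Oxa 1 and OAP2 3, while Il1a, Cxcl1 and Cxcl5 peaked in PBS 2, the library with the red blood cell and neutrophil markers.

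Csf3 was the one growth factor called lower in both OAP2 and Oxa than in PBS. It stood at 19.9, 27.0 and 20.8 FPKM in PBS 1 to 3, 12.9, 18.2 and 15.2 in APAP, 14.4, 12.1 and 15.7 in Oxa and 14.6, 12.1 and 10.3 in OAP2. Every treated library lay below every PBS library, and the 3 treated groups overlapped. OAP2 was 1.81-fold lower than PBS (-0.86 ± 0.17, edgeR adjusted p = 0.0114) and Oxa 1.60-fold lower (-0.68 ± 0.17, 0.0244). The Oxa call ended without Oxa 1 (0.0675) or Oxa 2 (0.0984). APAP was at -0.51 ± 0.17 (adjusted p = 0.407) and did not pass. Without PBS 2 the OAP2 change was -0.71 ± 0.16 (0.0103) and the Oxa change -0.52 ± 0.16 (0.0301).

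Csf1, the most abundant member, was called in no comparison with edgeR on all 12 libraries. Its FPKM was 38.1, 19.2 and 45.5 in PBS 1 to 3, 25.2, 32.1 and 27.4 in APAP, 38.1, 39.7 and 36.9 in Oxa and 26.5, 24.5 and 18.8 in OAP2. PBS 2 was the lowest PBS library by far, opposite to Il1a and Cxcl1, and the Oxa libraries lay above all APAP and OAP2 libraries. With all 12 libraries, OAP2 against Oxa came nearest to the threshold (-0.71 ± 0.23, edgeR adjusted p = 0.0620). Without PBS 2, Csf1 was called lower in OAP2 than in PBS (-0.83 ± 0.14, 0.00168) and than in Oxa (-0.71 ± 0.12, 0.00145), and higher in Oxa than in APAP (0.41 ± 0.12, 0.0276). In OAP2 against Oxa it was also called without PBS 3 (0.0399), with DESeq2 on all 12 libraries, and with only the 6 libraries of these groups. Csf2 was near the limit of detection: it had 90 counts (1.38 FPKM) in PBS 2, 23 in Oxa 1, 14 in PBS 3, 9 in APAP 1, 5 in APAP 3 and 3 in Oxa 3. It had 0 counts in the other 6 libraries, among them all 3 of OAP2, where a count of 0 allows up to 3 counts.

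Il1a, the interleukin 1 member, was dominated by PBS 2. It stood at 18.9, 178 and 9.32 FPKM in PBS 1 to 3, 7.61, 9.47 and 9.12 in APAP, 17.1, 18.0 and 24.8 in Oxa and 10.46, 9.69 and 8.40 in OAP2. PBS 3 lay among the APAP and OAP2 libraries, and all 3 Oxa libraries lay above those 6. OAP2 was 7.19-fold lower than PBS (-2.85 ± 0.77, edgeR adjusted p = 0.0486), but 1.48-fold lower without PBS 2 (-0.57, 0.132), the library with the neutrophil and red blood cell markers, whose part in this result was not tested. Leaving out any 1 of the 9 treated libraries also ended the call, with adjusted p from 0.0705 to 0.148. Without PBS 2, Oxa was called above OAP2 (2.09-fold, adjusted p = 0.00398) and above APAP (2.23-fold, 0.00202). With all 12 libraries these stood at 0.373 and 0.304.

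Of the CC chemokines, Ccl5 was called in 3 comparisons and Ccl2 in none with all 12 libraries. Ccl5 stood at 9.34, 3.15 and 7.77 FPKM in PBS 1 to 3, 6.09, 6.15 and 6.36 in APAP, 2.58, 3.35 and 3.29 in Oxa and 12.4, 10.4 and 11.4 in OAP2. The Oxa libraries were lowest and the OAP2 libraries highest, and apart from PBS 2, which fell among the Oxa values, the 4 groups did not overlap. OAP2 was 3.70-fold higher than Oxa (1.89 ± 0.31, edgeR adjusted p = 0.00207), and 1.80-fold higher than APAP (0.85 ± 0.30, 0.202, and 0.00946 without PBS 2). Oxa was lower than PBS (-1.13 ± 0.30, 0.0329, and -1.47 ± 0.18 with 0.000170 without PBS 2) and than APAP (-1.04 ± 0.30, 0.0351). The call against PBS ended without PBS 1, PBS 3, APAP 3, Oxa 1, Oxa 2 or Oxa 3 (adjusted p from 0.0510 to 0.124), and that against APAP without any 1 of the 6 Oxa and APAP libraries (0.0745 to 0.117). OAP2 against PBS was at 0.76 ± 0.30 (adjusted p = 0.155).

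Ccl2 stood at 2.08, 0.62 and 0.39 FPKM in PBS 1 to 3, 0.14, 0.80 and 0.51 in APAP, 1.59, 1.72 and 2.60 in Oxa and 0.82, 0.85 and 0.20 in OAP2. The Oxa libraries lay above all APAP and OAP2 libraries, and PBS spanned both. With all 12 libraries no comparison passed, Oxa against APAP coming nearest (1.97 ± 0.70, edgeR adjusted p = 0.0748, and 0.0461 without PBS 2). Because Ccl2 passed the filter through PBS 1 and the 3 Oxa libraries alone, these tests were conditioned on libraries in which it was high. With no filter, the edgeR adjusted p of Oxa against APAP was 0.1875 over all 12 libraries.

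**Figure D4:**
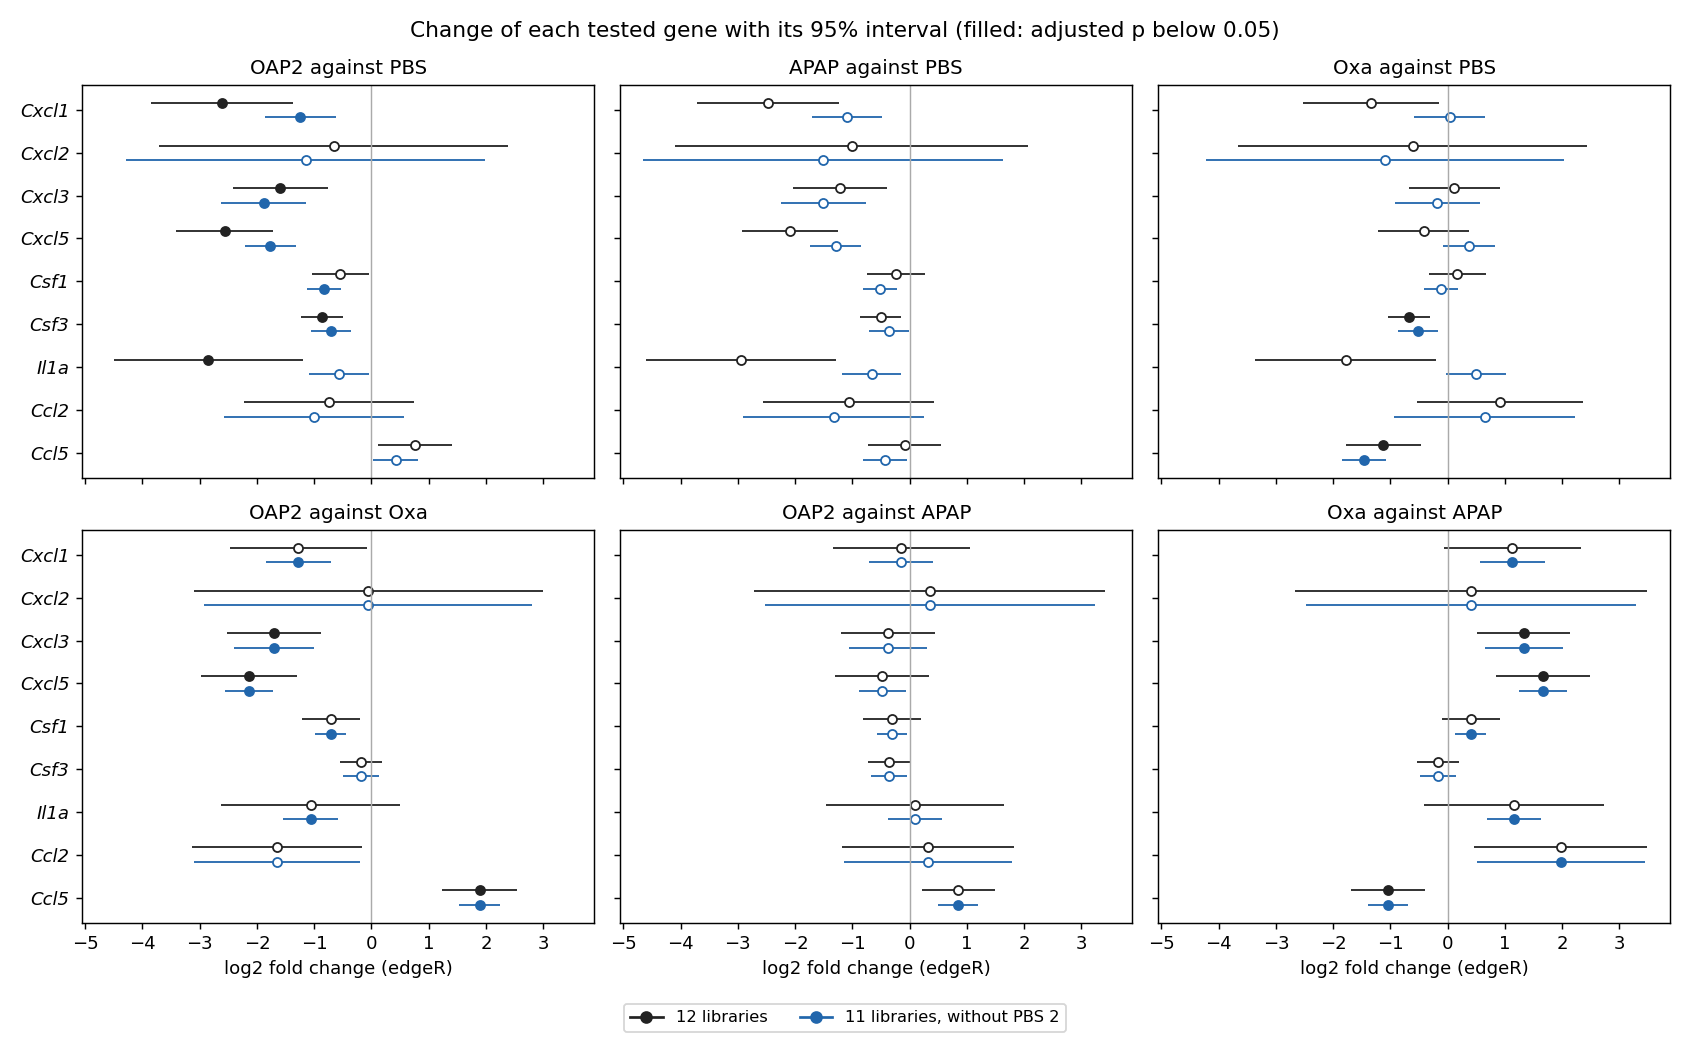
Log2 fold change (x axis) of the 9 tested genes in 6 comparisons with 95% intervals, from all 12 libraries (black) and without PBS 2 (blue), filled where the edgeR adjusted p is below 0.05. OAP2 against Oxa and Oxa against APAP keep their values and narrow without PBS 2, while the values of Cxcl1, Cxcl5 and Il1a against PBS shift to the right.

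Counted by comparison, 5 of the 9 tested members were lower in OAP2 than in PBS (Cxcl1, Cxcl3, Cxcl5, Csf3 and Il1a) and 0 were higher, where 5.25% of all tested genes were called, 3.11% lower and 2.14% higher. The median of the 9 was -0.86, against 0.00 over all genes. Without PBS 2, 5 were again lower, with Csf1 in place of Il1a, where 16.4% of genes were called, 7.65% lower and 8.77% higher. With edgeR on only the 6 libraries of these groups, 0 of the 9 were called, where 38 of 12036 genes were, against 632 with all 12 libraries. Without OAP2 1, OAP2 2 or OAP2 3, and with limma on log2(FPKM + 1) and with no filter on scarce genes, 2 members were called, Cxcl5 and Csf3. All genes called were 252, 313 and 926 in the 3 leave-out fits, 558 with limma and 360 of 28844 with no filter. The groups did not overlap for 5 members, with Cxcl1, Cxcl3, Cxcl5 and Csf3 lower and Ccl5 higher, where 18.7% of genes did not overlap. Without PBS 2 this held for 6, Csf1 being added, against 40.5% of genes.

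OAP2 against Oxa gave 2 lower (Cxcl3 and Cxcl5) and 1 higher (Ccl5) of 9, where 12.9% of genes were called, 6.91% lower and 6.02% higher. Each of these 3 calls held with any 1 of the 12 libraries left out. These fits kept the filter set on all 12 libraries, which Cxcl3 passed through PBS and Oxa libraries alone. Its call therefore stayed conditioned on its high groups. Without PBS 2 there were 5 lower and 1 higher, with Cxcl1, Csf1 and Il1a added, where 22.8% of genes were called, 12.7% lower and 10.1% higher. The groups did not overlap for 7 members, with Cxcl1, Cxcl3, Cxcl5, Csf1, Il1a and Ccl2 lower and Ccl5 higher, against 36.1% of genes. Cxcl3 and Ccl2 are among these 7 after passing the filter by libraries that include the 3 of Oxa, so their separation supports nothing.

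Oxa against APAP gave 2 higher (Cxcl3 and Cxcl5) and 1 lower (Ccl5), where 15.4% of genes were called, 8.21% higher and 7.18% lower. Without PBS 2 there were 6 higher, with Cxcl1, Csf1, Il1a and Ccl2 added, and 1 lower, where 27.7% of genes were called, 14.7% higher and 13% lower. Cxcl3 and Ccl2 entered the test through libraries in which they were high, and with no filter only Cxcl5 of the members was called. The fit with no filter called 1139 of 28844 genes. No member was called here without APAP 3 or Oxa 3, 1 (Cxcl5) was called without APAP 1, APAP 2 or Oxa 2, and 2 were called without Oxa 1. All genes called were 933 and 983 without APAP 3 and Oxa 3, and 1011 without Oxa 1. They were 945, 840 and 896 without APAP 1, APAP 2 and Oxa 2, against 1852 with all 12 libraries. The groups did not overlap for the same 7 members as between OAP2 and Oxa, 6 higher in Oxa and Ccl5 lower, against 47.8% of genes.

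Oxa against PBS gave 2 lower (Csf3 and Ccl5) and 0 higher of 9, where 10.1% of genes were called, 4.76% lower and 5.35% higher. Without PBS 2 the same 2 were called, where 25.5% of genes were called, 11.2% lower and 14.2% higher. The values of Cxcl1 (from -1.34 to 0.04), Cxcl5 (from -0.42 to 0.38) and Il1a (from -1.78 to 0.50) then turned from negative to positive, and those of Cxcl3 (from 0.12 to -0.18) and Csf1 (from 0.17 to -0.12) from positive to negative, none of the 5 called. Without Oxa 1 or Oxa 2 no member was called, without PBS 1, APAP 3 or Oxa 3 only Csf3 was, and without PBS 3 Cxcl1, Csf3 and Il1a were. All genes called were 536 and 477 without Oxa 1 and Oxa 2, and 736, 910 and 585 without PBS 1, APAP 3 and Oxa 3. They were 664 without PBS 3, against 1217 with all 12 libraries. Csf3 alone did not overlap between these groups, against 29.1% of genes, and Ccl5 joined it without PBS 2, against 56% of genes.

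APAP against PBS called 0 of 9 members by edgeR, where 0.0166% of genes were called, all of them lower. At an unadjusted p below 0.05, a looser threshold, there were 5 members. The share of all genes at that threshold was not taken, so this count supports nothing. All 9 values were negative, with a median of -1.06. Cxcl5 came nearest (-2.09 ± 0.39, adjusted p = 0.157, and -1.29 with 0.0642 without PBS 2), and it was called without PBS 3. DESeq2 called 3 members lower (Cxcl1, Cxcl5 and Il1a), where it called 97 of 12036 genes. That fit included PBS 2, in which these 3 genes peaked, and DESeq2 was not run without it. In edgeR, leaving out PBS 2 moved Il1a from -2.94 to -0.66 and Cxcl1 from -2.47 to -1.10. By limma 0 members were called, where it called 2 genes. Without PBS 2, 0 were called by edgeR, where 0.0249% of genes were called. At an unadjusted p below 0.05 there were 7 members, again without a share of all genes to set beside them. The groups did not overlap for 4 members, Cxcl1, Cxcl3, Cxcl5 and Csf3, against 15.9% of genes, and without PBS 2 for 6, with Csf1 and Ccl5, against 31.6%.

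OAP2 against APAP called 0 of 9 by edgeR, where 0.474% of genes were called, 0.199% lower and 0.274% higher. At an unadjusted p below 0.05 there was 1 member, with no share of all genes taken at that threshold. DESeq2 and limma also called 0 members, where DESeq2 called 506 of 12036 genes and limma on log2(FPKM + 1) 64. Without PBS 2, Ccl5 was called higher, where 7.61% of genes were called, 3.48% lower and 4.13% higher. The groups did not overlap for Cxcl5 (lower) and Ccl5 (higher), against 25.7% of genes. These comparisons reuse libraries, APAP, Oxa and OAP2 being set against the same 3 PBS libraries, so their values are given side by side and are not separate evidence.

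For the lists of other genes that follow, the background is the share of all tested genes called. It was 5.25% in OAP2 against PBS, 10.1% in Oxa against PBS, 12.9% in OAP2 against Oxa, 15.4% in Oxa against APAP, 0.474% in OAP2 against APAP and 0.0166% in APAP against PBS. Without PBS 2 it rose to 16.4%, 25.5%, 22.8%, 27.7%, 7.61% and 0.0249% in the same order, so a rise in a list's count without PBS 2 is not particular to that list. These shares are of calls by adjusted p. Counts of listed genes at an unadjusted p below 0.05 have no such share and are descriptions only.

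Receptors of these signals were mostly at the floor in these cells. Of 18 listed receptors in the table, 3 passed the filter. Cxcr2, the receptor of the CXC members, stood at or below 0.05 FPKM in every library, Csf3r at or below 0.20 and Csf1r at or below 0.44. Ackr3, an atypical receptor that scavenges CXCL12, was the abundant one, from 9.65 in APAP 1 to 30.8 in PBS 2. It fell with OAP2 against PBS (-0.94 ± 0.23, edgeR adjusted p = 0.0292), by 0.52 without PBS 2 (0.0138), and the call ended without OAP2 1, OAP2 2 or OAP2 3 (0.0571 to 0.106). It was the 1 called of 3 in that comparison, and 0 of 3 were called in the other 5, where Il1rap and Il1r1, parts of the interleukin 1 receptor, did not pass either. Without PBS 2, Ackr3 was also lower in OAP2 than in Oxa (-0.72, 0.000696) and higher in Oxa than in APAP (0.67, 0.000979).

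Of 23 other chemokines in the table, 6 passed the filter. OAP2 against PBS called 1 higher, the membrane-bound Cx3cl1 (0.73 ± 0.16, edgeR adjusted p = 0.0205), and 0 lower, where 5.25% of all genes were called. OAP2 against Oxa, with 12.9% of all genes called, gave 2 higher, the interferon-induced Cxcl10 (1.38 ± 0.25, 0.00329) and Ccl25 (0.96 ± 0.26, 0.0307). Cxcl10 stood at 4.62, 3.46 and 3.99 FPKM in OAP2 and at 2.15, 1.28 and 1.19 in Oxa, the same direction as Ccl5. Oxa against APAP, with 15.4% of all genes called, gave Ccl20, which attracts CCR6-bearing cells, higher (2.53 ± 0.66, 0.0215), with Cx3cl1 higher (0.55) and Ccl25 lower (-0.88). Ccl20 stood at 3.19, 1.64 and 2.01 in Oxa and at 0.41, 0.34 and 0.38 in APAP, and peaked at 5.88 in PBS 2. The other 3 comparisons called 0 of 6 by edgeR, with 2 members each at an unadjusted p below 0.05. The call of Cxcl10 held without each library in turn, and each of the others was lost on leaving out some library (adjusted p reaching 0.135). Without PBS 2, beside the higher shares of all genes given above, the calls were 1 higher and 1 lower in Oxa against PBS, 2 and 1 in OAP2 against Oxa, 1 and 0 in OAP2 against APAP, and as before in the other 3.

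Of 9 tested cytokines in the list of interleukin 1 relatives and myeloid factors, Lif, for leukaemia inhibitory factor, was the 1 called lower with OAP2 against PBS (-1.30 ± 0.19, edgeR adjusted p = 0.00207), 0 being higher, where 3.11% and 2.14% of all genes were. It stood at 51.3, 83.4 and 52.7 FPKM in PBS and at 28.5, 27.1 and 19.7 in OAP2. Lif was also lower in OAP2 than in Oxa (-0.90 ± 0.19, 0.00792), where Tslp, an epithelial cytokine (1.22 ± 0.30), and Kitl, the KIT ligand (0.71 ± 0.18), were higher. In Oxa against PBS, Tslp (-1.41 ± 0.31, 0.0129, and -0.75 without PBS 2) and Kitl (-0.64 ± 0.18, 0.0411) were the 2 called, both lower. Kitl was also the 1 called in Oxa against APAP (-0.88 ± 0.18, 0.00763). Both calls of Lif and that of Kitl against APAP held without each of the 12 libraries in turn, and the others were lost without some library (up to 0.150). Without PBS 2 the counts were 2 higher and 1 lower in OAP2 against PBS, where the share of all genes called rose from 5.25% to 16.4%, 1 and 2 in Oxa against PBS (10.1% to 25.5%), 3 and 2 in OAP2 against Oxa, 2 and 1 in OAP2 against APAP and 1 and 2 in Oxa against APAP. In APAP against PBS and in OAP2 against APAP 0 of 9 were called, 2 in each at an unadjusted p below 0.05. Il23a, of the same list, stood at 91.5, 74.2 and 86.55 FPKM in OAP2 and at 35.2, 34.4 and 34.8 in APAP. It stood at 45.7, 44.15 and 47.2 in Oxa and at 26.3, 95.0 and 29.5 in PBS 1 to 3. Its change in OAP2 against APAP lay between 1.19 and 1.32 over 21 alternatives, and 2 of these called it.

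The list of NF-kB and its partners holds known activators of the CXC genes and also inhibitors of NF-kB, among them Tnfaip3 and Nfkbie. All 22 listed genes were expressed and tested. In OAP2 against PBS 3 were lower and 1 was higher, with a median of -0.22, where 3.11% of all genes were lower and 2.14% higher: Tnfaip3, an NF-kB target that encodes its inhibitor A20 (-1.41 ± 0.18, edgeR adjusted p = 0.000956), the AP-1 subunit Fosl1 (-1.23 ± 0.17, 0.00151), Junb (-0.90 ± 0.22, 0.0326, and -0.45 without PBS 2) and, higher, Ikbkg (0.46 ± 0.10). Tnfaip3 stood at 17.9, 34.1 and 21.8 FPKM in PBS and at 9.56, 9.39 and 8.54 in OAP2. In OAP2 against Oxa 4 were lower and 0 higher, where 6.91% and 6.02% of all genes were: Nfkbie (-0.91), Tnfaip3 (-0.70), Junb (-0.78) and the subunit Nfkb1 (-0.43). In Oxa against APAP 5 were higher and 0 lower, where 8.21% and 7.18% of all genes were, among them Nfkbie (1.18 ± 0.22, 0.00457), the subunit Nfkb2 (0.76), the kinase Ikbke (0.76) and Nfkb1 (0.42).

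In Oxa against PBS, where 10.1% of all genes were called, 2 of the 22 were higher, Nfkb2 (0.78 ± 0.17, edgeR adjusted p = 0.0142) and Ikbkg (0.46), and 2 were lower, Fosl1 (-0.87 ± 0.17, 0.00797) and Tnfaip3 (-0.71). APAP against PBS and OAP2 against APAP called 0 of 22, with 5 in each at an unadjusted p below 0.05. Without PBS 2 there were 4 higher and 4 lower in OAP2 against PBS (16.4% of all genes called), 7 and 3 in Oxa against PBS (25.5%), 1 and 7 in OAP2 against Oxa (22.8%), 11 and 0 in Oxa against APAP (27.7%), 2 and 2 in OAP2 against APAP (7.61%) and 0 and 0 in APAP against PBS (0.0249%). The calls of Tnfaip3 and Fosl1 in OAP2 against PBS, of Fosl1 in Oxa against PBS and of Nfkbie in Oxa against APAP held without each of the 12 libraries in turn. The others named here were each lost without some library (adjusted p reaching 0.202).

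Of 12 proteins that bind AU-rich or stem-loop elements of cytokine mRNAs, all were tested. Zfp36, which encodes tristetraprolin, was lower in OAP2 than in PBS (-0.69 ± 0.15, edgeR adjusted p = 0.0212) and in Oxa than in PBS (-0.74 ± 0.15, 0.0108). It stood at 5.34, 5.07 and 4.20 FPKM in PBS, 3.70, 4.88 and 4.25 in APAP, 3.15, 2.98 and 2.59 in Oxa and 3.15, 2.91 and 2.94 in OAP2. Hnrnpd, which encodes the AU-rich element binding protein AUF1, was lower in OAP2 than in PBS (-0.63 ± 0.11, 0.00712) and than in Oxa (-0.65 ± 0.11, 0.00311). These made 0 higher and 2 lower of 12 in OAP2 against PBS (5.25% of all genes called), 0 and 1 in Oxa against PBS (10.1%), a share near that of all genes, and, with Khsrp (-0.38), 0 and 2 in OAP2 against Oxa (12.9%). Oxa against APAP called Hnrnpd (0.37) and Zfp36l1 (1.11) higher and Zfp36 lower (-0.59). APAP against PBS and OAP2 against APAP called 0, with 2 in each at an unadjusted p below 0.05. The calls of Hnrnpd in OAP2 against both, and of Zfp36 in Oxa against PBS, held without each library in turn, and the others were lost without some library (up to 0.207). Without PBS 2 there were 1 higher and 2 lower in OAP2 against PBS, 4 and 3 in Oxa against PBS, 0 and 4 in OAP2 against Oxa, 0 and 2 in OAP2 against APAP and 4 and 2 in Oxa against APAP.

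For Cxcl5 and Csf1, the most abundant of the CXC members and of the colony stimulating factors, the genes with the most similar pattern were sought by Pearson's r of log2(FPKM + 1) over the 11 libraries without PBS 2. For Cxcl5 these were Anxa8 (r = 0.968), mt-Tt (0.965), Cavin2 (0.965), Gvin1 (0.961) and Mkrn2 (0.959). Over all 12 libraries the same values were 0.980 for Anxa8 and 0.975 for Gvin1, but 0.842 for Cavin2, 0.662 for Mkrn2 and 0.581 for mt-Tt. Anxa8, an annexin, stood at a mean of 9.49 FPKM in PBS, 4.48 in APAP, 8.35 in Oxa and 3.45 in OAP2, and at 15.5 in PBS 2. For Csf1 they were Wdr60 (0.953), Tgfbr2 (0.951), Sparc (0.950), Masp1 (0.943) and Neil1 (0.937). Sparc, a matrix glycoprotein, stood at means of 14.4, 9.75, 17.3 and 8.78 in the same groups and, like Csf1, was lowest of the PBS libraries in PBS 2 (8.77). These libraries share 4 group levels, so the values describe likeness of pattern only.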

How the data were processed

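Poly(A) RNA of 12 libraries was sequenced in pairs from strand-marked cDNA, per the labels' protocols. Without roles, the submitters' processing notes list StringTie 2.1.6, HISAT2 2.2.1, cutadapt 1.9, edgeR, DESeq2 and mm9. No source used here says how strand, or reads that match several genes, were handled. The deposited table holds FPKM, scaled by the authors, and estimated counts that the authors left unscaled, whole numbers as deposited, so no rounding changed them. All 10 genes have their GRCm38 positions of GENCODE M21 (87.9% of 29864 matched genes do), so GRCm38 is used.

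Genes with at least 1 FPKM in at least 3 libraries (12036) were fitted in edgeR 4.0.16 (R 4.3.3) with TMM scaling, 1 mean per group and all 12 libraries, by the 2-sided quasi-likelihood test. Calls need a Benjamini-Hochberg adjusted p below 0.05. The SE is the change divided by the square root of F, an approximation. Alternatives used DESeq2 1.42.0, limma 3.58.1, other scalings, filters and pseudocounts, a replicate block, only the 6 libraries compared, and each library left out. Libraries with the same replicate number were not treated as pairs in the main fit. Their deviations from the group mean correlated between -0.134 and 0.232 in 18 pairs, 2 of them over 0.1. Pairs with unlike numbers were not set beside these, so the range cannot decide whether the libraries were paired. No 2 libraries of a group agreed within sampling noise.

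The members and lists were chosen with earlier results of these data known. All 10 members are named. From each list and comparison, up to 4 called genes with the largest test statistic are named, or the 2 with the smallest p where none was called, most of these by count alone.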

Additional observations from a re-analysis of the deposited data

How the results depend on the processing

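Over 120 changes of single genes and 21 alternatives, 2141 of 2490 values kept their direction and side of the threshold, 251 lost the call, 69 gained it and 29 turned direction. The causes were not tested. The number of members called in APAP against PBS was 3 with DESeq2, and 0 to 1 with each library left out. Of 12036 genes, DESeq2 called 97 there, and the leave-out fits called 0 to 3. In Oxa against PBS it was 0 when scarce genes were kept in or when only the 6 libraries compared were used, 1 with limma at either pseudocount, and 0 to 3 with each library left out. With all 12 libraries 1217 genes were called there, and 701 of 28844 with scarce genes kept in. The 6 libraries gave 523, limma 1065 and 1043, and the leave-out fits 477 to 3066. In OAP2 against PBS the number of members called was 2 without the filter on scarce genes and with limma at either pseudocount, 0 with only the 6 libraries compared, and 2 to 5 with each library left out. With all 12 libraries 632 genes were called there, and 360 of 28844 without the filter. The 6 libraries gave 38, limma 558 and 549, and the leave-out fits 252 to 1976. OAP2 against Oxa gave 6 members with only the 6 libraries compared and 3 to 6 with each library left out, and OAP2 against APAP 1 and 0 to 1. In OAP2 against Oxa, 1557 genes were called with all 12 libraries, 1876 with those 6 and 688 to 2743 with 1 left out. In OAP2 against APAP these were 57, 286 and 0 to 916. Oxa against APAP gave 1 member without the filter on scarce genes, 7 with only the 6 libraries compared and 0 to 7 with each library left out. With all 12 libraries 1852 genes were called there, and 1139 of 28844 without the filter. The 6 libraries gave 4409 of 12036 genes, and the leave-out fits 840 to 3338. The rise to 7 thus came with a rise over all genes.

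With the replicate number as a block, 1 member was called in Oxa against PBS and 3 in OAP2 against PBS, and the counts of the other 4 comparisons were the same as without it. In Oxa against PBS and OAP2 against PBS, 1097 and 513 genes were called with the block, against 1217 and 632 without it. Under the block Cxcl2 turned to 0.145 in Oxa against PBS and to -0.219 in OAP2 against APAP, neither called. With limma on log2(FPKM + 0.1), Cxcl2 turned to 0.395 in Oxa against PBS and 0.027 in OAP2 against PBS, and Ccl5 to 0.017 in APAP against PBS.

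Values that turned direction with a library left out are given by their range over the 12 fits. In APAP against PBS, Cxcl2 ranged from -1.637 to 2.116 and Ccl5 from -0.426 to 0.242. In Oxa against PBS, Cxcl1 ranged from -1.759 to 0.035, Cxcl2 from -1.175 to 2.518, Cxcl3 from -0.179 to 0.666, Cxcl5 from -0.747 to 0.377, Csf1 from -0.115 to 0.401, Il1a from -2.305 to 0.496 and Ackr3 from -0.423 to 0.202. In OAP2 against PBS, Cxcl2 ranged from -1.228 to 2.477 and Ccl2 from -1.133 to 0.297. Cxcl2 ranged from -0.554 to 0.520 in OAP2 against Oxa and from -0.163 to 1.029 in Oxa against APAP. In OAP2 against APAP, Cxcl2 ranged from -0.217 to 0.975, Ccl2 from -0.106 to 0.906, Cxcl1 from -0.346 to 0.049 and Il1r1 from -0.408 to 0.060. At its depth Csf2, with at most 90 counts, could not be compared.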
